A study of Mus musculus with 30 samples.

Results

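Common gamma-chain cytokines signal through receptors that share the chain encoded by Il2rg, and 9 of their genes were followed here through mouse tumours: the ligands Il2, Il7 and Il15, and the receptor chains Il2ra, Il15ra, Il7r, Il21r, Il2rb and Il2rg. They were taken by symbol from a table of 24552 genes, and all 9 were found. The tumours were MC38, a mouse colon carcinoma line, growing under the skin of female C57BL/6J mice that were 10 weeks old at injection of the cells. Once a tumour had reached 200 to 300 mm3, its host was given 1 intravenous injection, with vehicle, with mXTX301 (0.39 mg/kg) or with a positive control that is unmasked (0.03 mg/kg). mXTX301 is a masked surrogate for the cytokine IL-12 that works in the mouse; the labels give the second compound no other name. Tumours were taken on day 4 or day 7, which makes 6 groups of 5 mice, and polyA RNA of each whole tumour was sequenced. The vehicle group of each day served as control for both compounds, so the comparisons of the 2 compounds with vehicle share their controls.

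Each gamma-chain cytokine is recognised by a chain of its own, which pairs with the product of Il2rg. IL-2 and IL-15 also share the chain encoded by Il2rb, and each has a private alpha chain, encoded by Il2ra and Il15ra. IL-7 uses the chain encoded by Il7r and IL-21 the one encoded by Il21r. Activated T cells make IL-2, stromal cells make IL-7, and myeloid cells carry IL-15 on its alpha chain and present it to neighbouring T cells and natural killer cells. The receptors signal through JAK1 and JAK3, mostly to STAT5 for IL-2, IL-7 and IL-15 and to STAT3 for IL-21.

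The genes lie on several chromosomes of the mm10 build. Il2ra (2:11642807-11693193) and Il15ra (2:11705290-11734317) are neighbours on the plus strand, with 12.1 kb between them. Il7r (15:9505788-9530176) and Il2rb (15:78479256-78495271) lie far apart on the minus strand of chromosome 15, and Il2rg lies on the X chromosome (X:101264378-101268255, minus strand). Il2 (3:37120523-37125959) and Il7 (3:7569994-7613760) are on the minus strand of chromosome 3, Il15 (8:82331632-82403222) is on the minus strand of chromosome 8, and Il21r (7:125603429-125633570) is on the plus strand of chromosome 7.

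Promoters are shown for the receptor gene with the highest fold, Il7r, and for the neighbours Il15ra and Il2ra, which had larger and smaller folds. The windows come from RefSeq (GRCm38.p6), which matched 6 of the 9 genes with 7 windows. A window spans 300 bases, 250 before a start site and 50 from it onward. Each line gives only the 250 bases before the start, 5′ to 3′ on the gene's own strand. Il7r is read from chr15:9529877-9530126 (minus strand), Il15ra from chr2:11705043-11705292 (plus strand) and Il2ra from chr2:11642542-11642791 (plus strand). Capitals mark a match to a STAT site (GAS, TTCNNNGAA) or to an interferon regulatory factor core (AANNGAAA), searched on both strands.
Il7r: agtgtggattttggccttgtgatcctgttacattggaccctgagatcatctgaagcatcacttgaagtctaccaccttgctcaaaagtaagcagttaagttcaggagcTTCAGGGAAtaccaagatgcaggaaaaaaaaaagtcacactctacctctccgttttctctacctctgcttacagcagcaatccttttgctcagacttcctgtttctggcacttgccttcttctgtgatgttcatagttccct
Il15ra: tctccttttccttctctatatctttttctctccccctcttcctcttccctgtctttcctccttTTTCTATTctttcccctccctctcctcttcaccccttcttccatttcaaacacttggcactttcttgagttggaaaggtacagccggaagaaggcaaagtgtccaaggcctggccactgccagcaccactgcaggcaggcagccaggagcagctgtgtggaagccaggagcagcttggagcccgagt
Il2ra: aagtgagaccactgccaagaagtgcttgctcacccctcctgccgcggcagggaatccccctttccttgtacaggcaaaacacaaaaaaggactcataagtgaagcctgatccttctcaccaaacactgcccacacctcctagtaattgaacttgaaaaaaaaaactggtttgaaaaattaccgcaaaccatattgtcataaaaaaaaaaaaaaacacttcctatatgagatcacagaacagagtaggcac
The 30 bases below follow a second Il15ra start site (chr2:11705732-11705761, plus strand), and the capitals mark another core match.
Il15ra second start: aagcaaAAGCGAAAgcgaatactccttagc

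The Il7r window held the GAS match TTCAGGGAA, 142 to 134 bases before the start, and 8.3% of the 32851 mouse windows of the same length held one. Both Il15ra windows held an interferon regulatory factor core, as did 23.9% of all windows. In the second window it lay 26 to 33 bases after the start, and the 250 bases before that start held no match. The longer interferon-stimulated response element, which contains that core and occurs in 3.44% of all windows, was not among the letters of any of the 7. In the Il2ra window none of the 3 motifs was found. These are letter matches in a short window and say nothing of binding.

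Libraries held 48301869 to 85195518 counted reads. Among the 6 epithelial and intestinal markers checked against the tumour label, the summed level was low, 1.90 to 14.4 counts per 1000000 (CPM, scaled for library composition) in any library. Skin keratinocyte genes split the libraries: in 8 of the 30, at least 1 in every group, the 8 skin markers summed to 111 to 858 CPM, and in the others to at most 35.5 CPM. Where the call on a member changes without those 8, the value without them is given too. Then 22 libraries are compared, 3 or 4 a group. Calls on genes of the other lists were not checked in this way. The summed level of the 12 T-cell markers was 4.87 to 12.7 CPM in the vehicle groups, 22.3 to 114 CPM in the treated groups of day 4 and 54.7 to 178 CPM in those of day 7. The 8 macrophage markers summed to 315 to 889 CPM under vehicle, 555 to 1506 CPM in the treated groups of day 4 and 802 to 2443 CPM in those of day 7. In a bulk tumour, fewer cells of a type and less RNA per cell cannot be told apart.

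Of the 9 genes, 8 passed the filter on low counts, and Il2 did not. After mXTX301, 7 of the 8 tested members rose by day 4 and 6 by day 7, with Il7r moving furthest. All genes together rose in 16.2% of 15482 cases on day 4 and in 25.7% on day 7. The unmasked control raised 4 of 8 on day 4, against 11.6% of all genes, and 7 of 8 on day 7, against 23.2%. None of the 8 fell in any of these 4 comparisons. Calls are at an adjusted p under 0.05 in edgeR's quasi-likelihood test, with Benjamini-Hochberg adjustment over all genes tested.

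**Figure D1:**
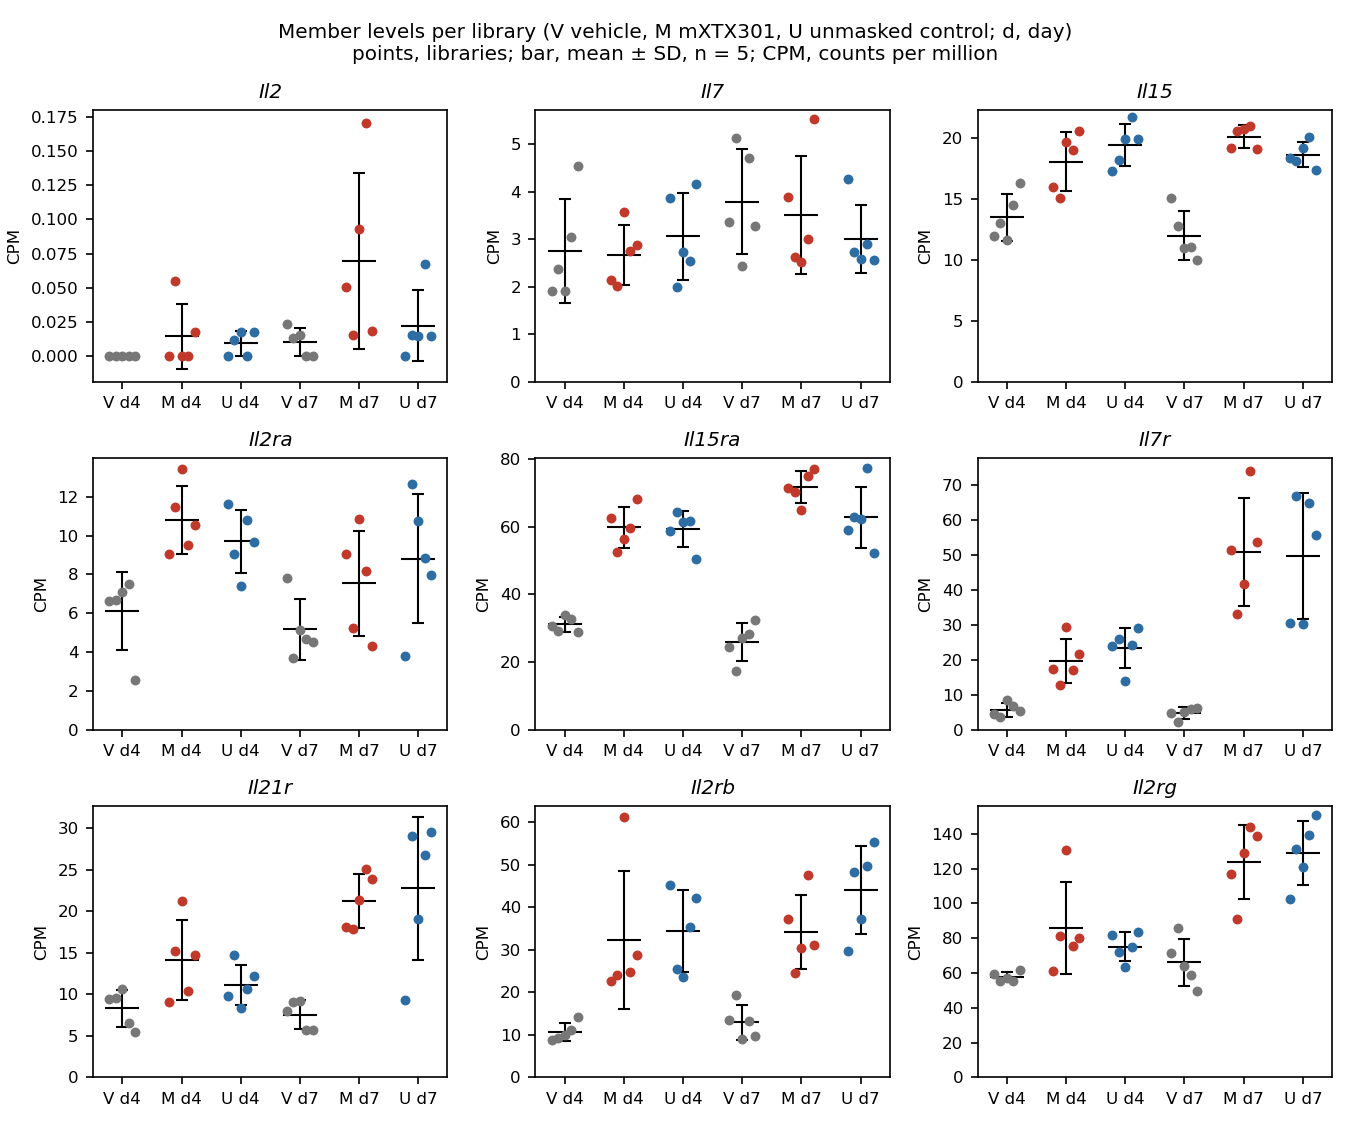
Level of each gene in each library, in CPM (y axis, its scale set per gene), for vehicle (V), mXTX301 (M) and the unmasked control (U) on day 4 and day 7 (d4, d7). Points are libraries and bars are the mean ± SD, n = 5. Il7r climbs from a vehicle mean of 4.74 to 50.8 CPM on day 7 after mXTX301, and Il7 stays between means of 2.67 and 3.79 CPM.

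The members' median log2 fold change after mXTX301 was 0.80 on day 4 and 1.15 on day 7, with 0.01 and 0.02 over all genes. For the unmasked control the medians were 0.60 and 1.12, with -0.01 and 0.01 over all genes. On day 4 the mXTX301 libraries lay wholly above vehicle for 4 members (9.29% of all genes), and those of the unmasked control for 5 (7.3%). On day 7 that held for 6 members with either compound, with 16.5% of all genes for mXTX301 and 12.5% for the unmasked control.

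Il2, the growth factor made by activated T cells, was close to absent. Its 37 reads in all 30 libraries were spread as 0 in vehicle day 4, 4 in vehicle day 7, 4 in mXTX301 day 4, 19 in mXTX301 day 7, 3 in unmasked day 4 and 7 in unmasked day 7. A count of 0 over the vehicle day 4 group allows a level of up to 0.0103 CPM (3 counts of the total, counting error only). The mXTX301 day 7 group was the one in which every library held a read, from 1 to 8 each. With no filter on low counts, Il2 was called higher there than in vehicle day 7 (log2 fold change 2.39, edgeR adjusted p = 0.0463), though 0.0153 to 0.171 CPM overlapped 0 to 0.0238 CPM.

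Il7, which keeps resting T cells alive, did not pass the test in any comparison. Its mean was 2.76 ± 1.095 CPM (SD, n = 5) in vehicle day 4 and 3.79 ± 1.11 in vehicle day 7. After mXTX301 it was 2.67 ± 0.628 on day 4 and 3.51 ± 1.25 on day 7. With the unmasked control it was 3.06 ± 0.919 and 3.00 ± 0.715. Every pair of these groups with the same day or the same treatment overlapped. The 95% intervals of the Il7 fold against vehicle were 0.662 to 1.42 and 0.635 to 1.35 for mXTX301, and 0.757 to 1.62 and 0.543 to 1.16 for the unmasked control.

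Il15, which sustains memory T cells and natural killer cells, rose modestly in all 4 comparisons with vehicle. On day 4 the vehicle libraries read 12, 13.0, 11.7, 14.5 and 16.3 CPM, and the mXTX301 libraries 16, 15.1, 19.7, 19.0 and 20.6 CPM. The unmasked control gave 17.3, 18.3, 19.9, 21.7 and 19.997 CPM. Only the mXTX301 range touched that of vehicle, through replicates 1 and 2. On day 7 vehicle stood at 15.1, 12.8, 10.98, 11.1 and 10.02 CPM, mXTX301 at 19.2, 20.7, 20.8, 21.0 and 19.2 CPM, and the unmasked control at 18.4, 18.2, 19.2, 20.2 and 17.4 CPM. Both treated groups were above every vehicle library that day. The Il15 fold was 1.34 (95% interval 1.16 to 1.55, adjusted p = 0.00286) and 1.68 (1.45 to 1.95, adjusted p = 2.34e-06) for mXTX301 on the 2 days. For the unmasked control it was 1.44 (1.24 to 1.67, adjusted p = 0.000616) and 1.56 (1.34 to 1.80, adjusted p = 2.1e-05).

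Il15ra, the chain that holds IL-15 for presentation, rose as well, from a higher level. Vehicle day 4 gave 30.6, 29.2, 34.0, 32.7 and 29.02 CPM, and mXTX301 day 4 gave 62.6, 52.4, 56.3, 59.6 and 68.2 CPM. The unmasked control gave 58.7, 64.4, 61.5, 61.8 and 50.6 CPM. The treated groups did not overlap vehicle and did overlap each other. On day 7 vehicle had 24.6, 17.4, 27.2, 28.4 and 32.5 CPM, mXTX301 71.4, 70.3, 64.9, 75.0 and 77.2 CPM, and the unmasked control 59.0, 63.0, 62.3, 77.4 and 52.4 CPM. Vehicle again lay below all treated libraries. The Il15ra fold was 1.92 (1.64 to 2.26, adjusted p = 1.71e-06) and then 2.76 (2.35 to 3.25, adjusted p = 2.58e-10) for mXTX301. It was 1.91 (1.62 to 2.24, adjusted p = 1.93e-06) and then 2.42 (2.05 to 2.84, adjusted p = 4.2e-09) for the unmasked control. Its neighbour Il2ra had smaller folds.

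Il2ra, the alpha chain that raises the affinity for IL-2 and marks regulatory and activated T cells, rose after mXTX301 on day 4 and after the unmasked control on day 7. Vehicle day 4 read 6.62, 6.69, 7.09, 7.52 and 2.54 CPM, and mXTX301 day 4 read 9.03, 11.5, 13.4, 9.50 and 10.6 CPM. All mXTX301 libraries of day 4 stood above vehicle, where replicate 5 lay well under the rest. The fold was 1.77 (1.19 to 2.65, adjusted p = 0.0259), and the call was lost without vehicle replicate 5 (adjusted p = 0.0814), without mXTX301 replicate 3 (0.0686) or without the skin-rich libraries, where the fold was 1.76 (0.0756). On day 7 the range was 3.68 to 7.80 CPM for vehicle, 4.32 to 10.8 for mXTX301 and 3.81 to 12.6 for the unmasked control, so the groups overlapped. The unmasked control's day 7 fold of 1.70 (1.14 to 2.55, adjusted p = 0.0280) was lost without the skin-rich libraries (1.56-fold, adjusted p = 0.154), when only the compared groups were fitted (0.0566), and without vehicle replicate 2, 3, 4 or 5 or unmasked replicate 2 or 3 (0.0509 to 0.102). The Il2ra values not called were 1.46-fold (adjusted p = 0.114) for mXTX301 on day 7 and 1.59-fold (adjusted p = 0.0868) for the unmasked control on day 4. Without vehicle day 7 replicate 1 the former passed (adjusted p = 0.0447).

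The 5 markers of regulatory T cells, known for high levels of the IL-2 alpha chain, summed to 12.3 to 28.1 CPM under vehicle and 19.4 to 29.1 CPM in the treated groups. The means for vehicle, mXTX301 and the unmasked control were 22.8, 26.7 and 24.8 CPM on day 4. On day 7 they were 17.7, 23.2 and 22.7 CPM. Calls on these markers other than Foxp3 are not reported here. Foxp3, their defining transcription factor, did not pass in any of the 4 comparisons with vehicle, with folds of 1.00 and 1.13 for mXTX301 and 0.707 and 1.09 for the unmasked control on days 4 and 7. The part of these cells in the Il2ra values was not tested.

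Il7r, the chain that receives IL-7 and marks naive and memory T cells, had the highest fold of the 8 in each of the 4 comparisons. On day 4 vehicle gave 4.41, 3.50, 8.41, 6.81 and 5.21 CPM, mXTX301 17.3, 12.7, 29.2, 17.0 and 21.6 CPM, and the unmasked control 23.8, 25.8, 13.8, 24.1 and 28.98 CPM. On day 7 vehicle gave 4.67, 2.01, 5.04, 5.79 and 6.21 CPM, mXTX301 51.3, 33.1, 41.6, 74.0 and 53.8 CPM, and the unmasked control 30.5, 66.9, 30.1, 64.8 and 55.7 CPM. No treated library reached down to vehicle, and with each compound all day 7 libraries stood above those of day 4. The Il7r fold against vehicle went from 3.45 (2.23 to 5.35, adjusted p = 0.000135) to 10.7 (6.73 to 17.0, adjusted p = 1.33e-08) with mXTX301. With the unmasked control it went from 4.11 (2.64 to 6.39, adjusted p = 4.51e-05) to 10.5 (6.59 to 16.6, adjusted p = 2.11e-08).

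Il21r, the receptor chain for the helper T-cell cytokine IL-21, had its larger folds on day 7. Vehicle day 4 gave 9.41, 9.54, 10.6, 6.57 and 5.45 CPM, mXTX301 9.03, 15.3, 21.2, 10.4 and 14.7 CPM, and the unmasked control 9.82, 14.7, 8.30, 10.6 and 12.2 CPM. All 3 groups overlapped on day 4. On day 7 vehicle gave 8.02, 9.03, 9.24, 5.71 and 5.67 CPM, mXTX301 18.2, 17.9, 21.4, 25.1 and 23.8 CPM, and the unmasked control 9.28, 29.1, 19.1, 26.8 and 29.5 CPM. Both treated groups cleared vehicle, the unmasked one only just, through replicate 1. The mXTX301 fold was 1.70 (adjusted p = 0.0241) on day 4 and 2.82 (1.95 to 4.09, adjusted p = 4.61e-05) on day 7. The day 4 call was lost without vehicle replicate 4 or 5, without mXTX301 replicate 2 or 3 (adjusted p 0.0501 to 0.1104), and without the skin-rich libraries (1.40-fold, 0.235). For the unmasked control the Il21r fold was 1.34 (0.929 to 1.93, adjusted p = 0.249) on day 4 and 3.02 (2.08 to 4.38, adjusted p = 2.6e-05) on day 7.

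Il2rb, the signalling chain shared by IL-2 and IL-15, rose on both days with both compounds. Vehicle day 4 gave 8.78, 9.22, 9.90, 11.1 and 14.1 CPM, mXTX301 22.7, 24.1, 61.1, 24.8 and 28.7 CPM, and the unmasked control 45.2, 25.4, 23.7, 35.3 and 42.2 CPM. One mXTX301 library, replicate 3, carried more than the other 4, and it was also the highest of its group in Il2rg, Il21r, Il7r and Cd3e. On day 7 vehicle gave 13.6, 19.4, 9.03, 13.2 and 9.84 CPM, mXTX301 37.2, 24.6, 30.5, 47.5 and 31.2 CPM, and the unmasked control 29.7, 48.3, 37.3, 49.7 and 55.3 CPM. All treated libraries were above vehicle of their day. The Il2rb folds were 3.04 (2.08 to 4.45, adjusted p = 9.27e-05) and 2.62 (1.80 to 3.82, adjusted p = 0.000130) for mXTX301. They were 3.23 (2.21 to 4.73, adjusted p = 6.91e-05) and 3.38 (2.31 to 4.95, adjusted p = 1.09e-05) for the unmasked control.

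Il2rg, the chain that all these receptors share, was the most abundant member. Vehicle day 4 gave 59.3, 55.7, 57.2, 55.4 and 61.8 CPM, mXTX301 61.1, 81.5, 131, 75.7 and 80.2 CPM, and the unmasked control 82.0, 72.0, 63.4, 74.8 and 83.7 CPM. Replicate 1 of mXTX301 lay within the vehicle range. On day 7 vehicle gave 71.5, 86.2, 63.8, 59.1 and 49.9 CPM, mXTX301 117, 90.8, 129, 144 and 139 CPM, and the unmasked control 103, 131, 121, 140 and 151 CPM. On that day no treated library overlapped vehicle. The mXTX301 fold was 1.48 (1.19 to 1.86, adjusted p = 0.00696) on day 4, lost without its replicate 3 (adjusted p = 0.0509) or the skin-rich libraries (1.26-fold, 0.0820), and 1.87 (1.498 to 2.34, adjusted p = 4.32e-05) on day 7. For the unmasked control Il2rg was 1.30-fold (1.04 to 1.62, adjusted p = 0.0831) on day 4, a value that passed when only the compared groups were fitted (adjusted p = 0.00730), and 1.95-fold (1.56 to 2.44, adjusted p = 2.37e-05) on day 7.

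**Figure D2:**
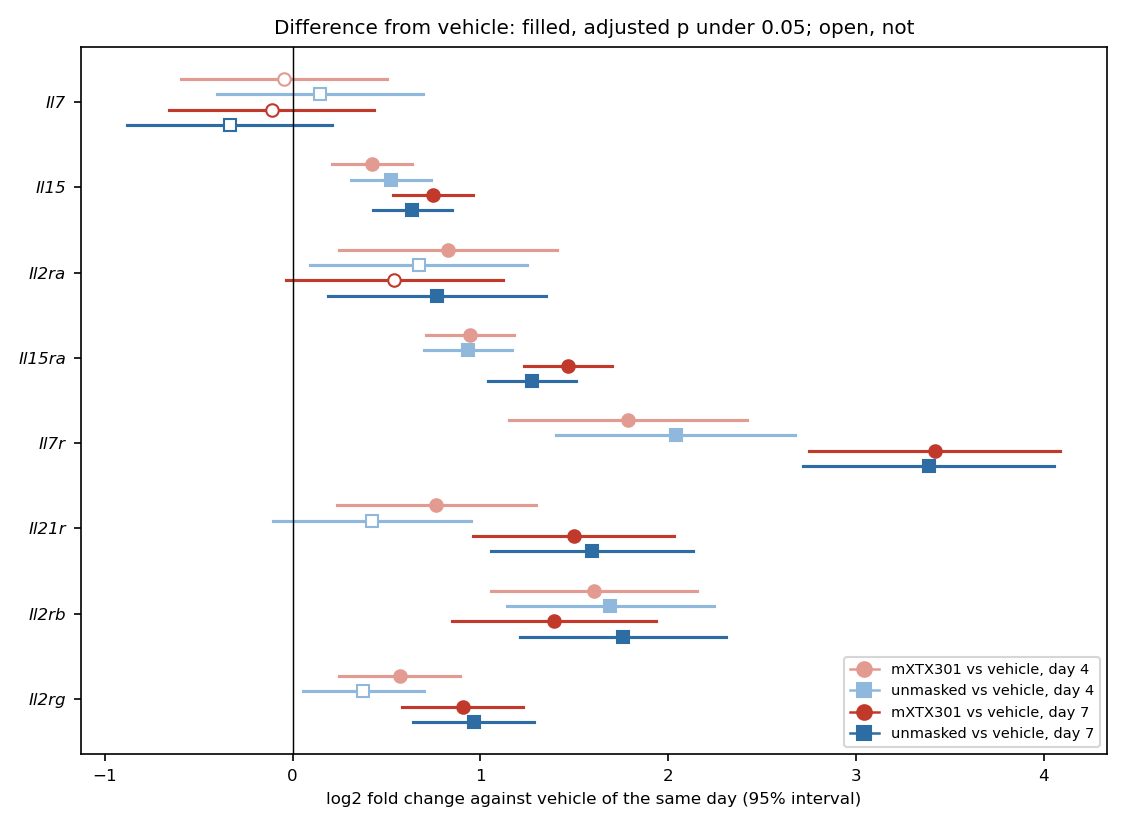
Log2 fold change of the 8 tested genes against vehicle of the same day (x axis), with 95% intervals from the edgeR fit, for mXTX301 (circles) and the unmasked control (squares) on day 4 (pale) and day 7 (dark). Filled symbols have an adjusted p under 0.05; Il7r reaches 3.42 and 3.39 on day 7 and all 4 Il7 intervals span 0.

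Without mXTX301 day 4 replicate 3, the count of members called on day 4 was 4 instead of 7, and it was also 4 without the 8 skin-rich libraries, of which that replicate is one. The members then called were Il15, Il15ra, Il2rb and Il7r, the 4 that the unmasked control raised that day.

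Per kilobase of exon, a scale on which genes can be compared, the vehicle day 4 order was Il2rg (34.7 ± 1.60 CPM per kb), Il15ra (13.6 ± 0.957), Il15 (6.43 ± 0.915), Il21r (3.27 ± 0.860), Il2rb (2.48 ± 0.502), Il7r (1.60 ± 0.552), Il2ra (1.17 ± 0.387), Il7 (0.497 ± 0.197) and Il2 (0). The libraries of Il21r and Il2rb overlapped, as did those of Il2rb and Il7r, of Il7r and Il2ra, and of Il2ra and Il7. In mXTX301 day 7 Il7r held the third place, at 14.3 ± 4.35 CPM per kb, behind Il2rg (74.2 ± 12.7) and Il15ra (31.3 ± 2.06). There Il15 (9.59 ± 0.437), Il21r (8.37 ± 1.28) and Il2rb (7.97 ± 2.02) followed. The libraries of Il7r overlapped those of each of these 3, and the 3 overlapped each other. At that point Il7 was at 0.632 ± 0.225 and Il2ra at 1.45 ± 0.518 CPM per kb, so Il2ra lay well below Il15ra and Il7r in that group. Lengths are from GENCODE M21 and not from the annotation used for counting.

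From day 4 to day 7, none of the 8 members passed the test within vehicle, where edgeR called 0.0388% of all genes. At an unadjusted p under 0.05 in edgeR there was 1 member, Il15ra, beside 2932 of the 15482 genes. DESeq2 called 0 members and 604 genes. Within mXTX301, Il7r (2.59-fold, 1.69 to 3.98, adjusted p = 0.00691) and Il2rg (1.44-fold, 1.15 to 1.80, adjusted p = 0.0287) rose, against 7.88% of all genes. The Il2rg call was lost without mXTX301 day 4 replicate 1, 2, 4 or 5 or day 7 replicate 4 or 5 (adjusted p 0.0613 to 0.115) and when only the compared groups were fitted (0.0919). Il15ra passed in that smaller fit (adjusted p = 0.0376), and Il21r passed without mXTX301 day 4 replicate 3 (0.0389). Within the unmasked control, Il2rg (1.72-fold, adjusted p = 0.00206), Il21r (2.04-fold, adjusted p = 0.00619) and Il7r (2.13-fold, adjusted p = 0.0103) rose, against 14.4% of all genes. Without the skin-rich libraries the Il21r rise was 1.96-fold and did not pass (adjusted p = 0.0523).

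The change of the mXTX301 effect between the days, tested as an interaction, passed for Il7r alone among the 8 (1.95% of all genes passed upward). Its effect was 3.10 times larger on day 7 (1.69 to 5.69, adjusted p = 0.0306). The call was lost without vehicle day 4 replicate 3, vehicle day 7 replicate 4, mXTX301 day 4 replicate 1, 2 or 4, or mXTX301 day 7 replicate 4 or 5, with adjusted p from 0.0535 to 0.0725 and a log2 change from 1.42 to 1.71. Il15ra came next, with a 1.44 times larger effect (adjusted p = 0.0539), and passed by DESeq2 (0.0263) and without the skin-rich libraries (1.54 times, 0.0341). For the unmasked control no member passed in edgeR, 4 had an unadjusted p under 0.05, and 5.15% of all genes were called. Il7r (2.55 times, adjusted p = 0.0560) and Il21r (2.25 times, adjusted p = 0.0534) lay nearest, and DESeq2 called both (0.0180 and 0.0199).

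The 2 compounds were given at different doses, so the values stand side by side and say nothing of potency. Of the 8 pairs of levels on each day, none differed at an adjusted p under 0.05 in edgeR, none had an unadjusted p under 0.05, and DESeq2 called none. Over all genes edgeR called 0.0% on either day, with 2092 and 898 genes at an unadjusted p under 0.05, and DESeq2 called 25 and 14. Il7r was 0.839-fold (0.551 to 1.28) in mXTX301 relative to the unmasked control on day 4 and 1.02-fold (0.673 to 1.55) on day 7. The narrowest intervals were those of Il15, 0.805 to 1.08 and 0.933 to 1.25, and of Il15ra, 0.858 to 1.18 and 0.974 to 1.34. Wider ones leave room for larger differences: Il2rb was 0.775-fold on day 7 (0.536 to 1.12) and Il21r 1.27-fold on day 4 (0.882 to 1.83).

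Because T-cell markers moved with treatment, each level was also set against the mean log2 level of Cd3d, Cd3e and Cd3g, the CD3 chains of the T-cell receptor, in the same library. On that scale Il7r did not differ detectably from vehicle, while by day 7 the other members were lower, as were nearly all genes. The 3 CD3 genes rose 3.75-fold to 5.37-fold after mXTX301 on day 4 and 9.95-fold to 13.5-fold on day 7. After the unmasked control they rose 4.45-fold to 5.13-fold and then 13.6-fold to 20.1-fold. The tests were exact two-sided permutation tests of 5 against 5 libraries, with 0.00794 as the smallest p they can give, adjusted over 32 tests.

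**Figure D3:**
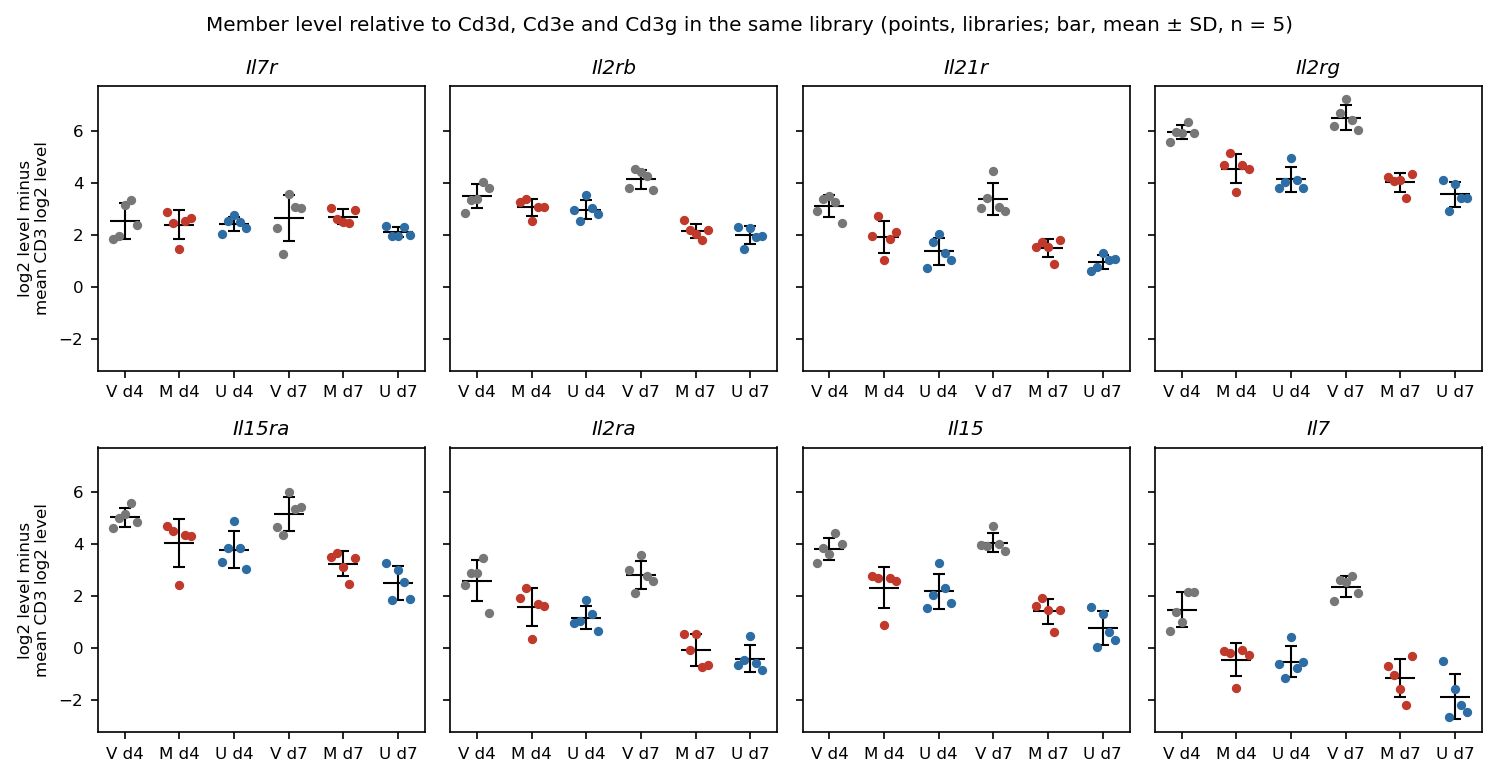
Log2 level of each gene minus the mean log2 level of Cd3d, Cd3e and Cd3g in the same library (y axis), by group as in the plot of levels (V vehicle, M mXTX301, U unmasked control). Points are libraries and bars the mean ± SD, n = 5; Il7r keeps group means between 2.10 and 2.696 and Il7 falls from 2.36 to -1.16 after mXTX301 on day 7.

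Il7r relative to CD3 was 2.52 ± 0.677 (log2, SD, n = 5) in vehicle day 4, 2.39 ± 0.539 in mXTX301 and 2.40 ± 0.285 in the unmasked control. On day 7 it was 2.64 ± 0.897, 2.696 ± 0.279 and 2.10 ± 0.196. None of these differences from vehicle passed (exact permutation tests, adjusted p 0.193 to 0.873). The difference for the unmasked control on day 7 was -0.54 and passed without vehicle day 7 replicate 2 (-0.89, exact permutation test, adjusted p = 0.0293).

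Il2rb relative to CD3 differed from vehicle by -0.42 and -0.51 on day 4 (exact permutation tests, adjusted p = 0.181 and 0.113), and both passed without vehicle replicate 1 (adjusted p = 0.0376). On day 7 the difference was -1.99 for mXTX301 and -2.16 for the unmasked control (exact permutation tests, adjusted p = 0.0127 for each). Il2rb transcripts thus rose less than those of the CD3 chains by day 7.

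On day 4, 5 of the 8 members were lower relative to CD3 after mXTX301 (Il7, Il15, Il2rg, Il15ra and Il21r) and 6 after the unmasked control, with Il2ra added. On day 7 all members other than Il7r were lower with either compound (exact permutation tests, adjusted p = 0.0127), from -1.89 for Il21r to -3.52 for Il7 after mXTX301. These counts say little of the members themselves, because the CD3 genes rose so far. At an exact permutation p of 0.0238 or less, the largest at which a member was called, 88.3% of 15479 genes were lower after mXTX301 on day 4 and 93.4% on day 7, and 92.6% and 96.7% after the unmasked control. The median difference over all genes was -1.91 and -3.38 for mXTX301 and -2.18 and -3.91 for the unmasked control, and over the 8 members -1.10 and -2.24, and -1.54 and -2.80.

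The Il15ra call after mXTX301 on day 4 was lost without vehicle replicate 2, 3 or 4 (-0.995 to -0.850, exact permutation tests, adjusted p = 0.0508), and Il2ra passed without vehicle replicate 5 (-1.34, exact permutation test, adjusted p = 0.0221). Without the skin-rich libraries 4 were left against 4, for which the smallest possible exact p is 0.0286, so that a single overlap can end a call, and 3 members passed with each compound. The calls lost for mXTX301 were Il15ra (-0.44 in place of -0.99) and Il21r (-0.91 in place of -1.18). Those lost for the unmasked control were Il15 (-1.38 in place of -1.64), Il2ra (-1.09 in place of -1.43) and Il15ra (-0.93 in place of -1.25).

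Natural killer cells also carry Il2rb and Il15ra products. The summed level of 6 markers of these cells averaged 16.9 CPM in vehicle, 20.1 in mXTX301 and 19.9 in the unmasked control on day 4, and 17.4, 16.5 and 19.2 CPM on day 7. Eomes, which T cells express too, made up most of it, with means of 12.2 to 15.7 CPM. Klra4 had no read in any library, and Klra8 had none outside unmasked day 7. Of the 4 markers tested, the receptor gene Klre1 rose after mXTX301 (4.61-fold and 4.44-fold) and after the unmasked control (3.56-fold and 6.91-fold). Ncr1, a defining receptor, averaged 0.552 ± 0.245 CPM in vehicle day 4, 1.35 ± 0.873 in mXTX301 and 1.54 ± 1.00 in the unmasked control, and rose 2.44-fold and 2.78-fold on that day only (edgeR adjusted p = 0.0432 and 0.0291). Klrb1c and Eomes passed in none of the 4 comparisons. The part of these cells in the Il2rb values was not tested.

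Group 2 innate lymphoid cells are known to carry Il7r. Their 5 markers summed to a mean of 38.5 CPM in vehicle, 90.3 in mXTX301 and 124 in the unmasked control on day 4, and to 37.1, 81.2 and 93.8 CPM on day 7. Nearly all of this was Il1rl1, the IL-33 receptor, which mast cells and regulatory T cells carry as well; its vehicle means were 35.1 and 32.6 CPM. Il1rl1 rose 2.47-fold and 2.32-fold after mXTX301 (adjusted p = 0.0359 and 0.0354) and 3.41-fold and 2.702-fold after the unmasked control (adjusted p = 0.00896 and 0.0158). Gata3 passed in none of the 4, and Il17rb, Il13 and Il5 did not pass the filter on low counts. The part of these cells in the Il7r values was not tested.

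The genes whose pattern was most like that of each member were sought over the 30 libraries. These are Pearson correlations of log2 levels among 12111 genes, given as a description, since libraries share treatment, and r within groups is given beside each. Il2rb ran closest to Sh2d2a, a T-cell adaptor (r = 0.984, 0.965 within groups), Klrc1, a killer-cell lectin receptor (0.979, 0.925), and the T-cell co-receptor Cd28 (0.975, 0.887). Il7r ran closest to Il1rn, the IL-1 receptor antagonist (0.983, 0.854), Il18bp, the IL-18 binding protein (0.975, 0.846), and Acod1, which makes itaconate in macrophages (0.972, 0.774). Il2rg ran closest to Lpcat2 (0.973, 0.912), Cd300a (0.967, 0.880) and the myeloid receptor Sirpa (0.966, 0.860), and Il21r to Slc8a1 (0.979, 0.943), Irf5 (0.971, 0.924) and Pirb (0.971, 0.933). With the mean of the 3 CD3 genes, r was 0.942 for Il7r (0.540 within groups), 0.935 for Il2rb (0.810), 0.878 for Il2rg (0.752) and 0.859 for Il21r (0.603). It was 0.839 for Il15ra (-0.128), 0.816 for Il15 (0.221), 0.522 for Il2ra (0.370) and 0.0239 for Il7 (0.200).

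The 3 genes nearest to Il15ra were guanylate-binding proteins, which interferon induces: Gbp11 (0.969, 0.7098), Gbp5 (0.966, 0.681) and Gbp6 (0.966, 0.623). Il15 lay nearest to genes of antigen processing, Tapbpl (0.912, 0.515), Psmb9 (0.912, 0.482) and Tap1 (0.907, 0.539). For Il2ra the nearest were Frs2 (0.817, 0.757), Csf1 (0.816, 0.683) and Mlxip (0.809, 0.723), and for Il7 they were Anxa1 (0.717, 0.763), Mettl27 (0.708, 0.758) and Tmem14a (0.707, 0.683). Between Il15 and Il15ra, r was 0.826 over all 30 libraries and -0.164 within groups, so their shared pattern lay between groups. Il2rb and Il2rg had r of 0.840 over all and 0.843 within groups.

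The remaining ligands and receptors of the family, with those of TSLP, another user of the IL-7 receptor chain, were sparse on the ligand side. Il4, Il9 and Il21 did not pass the filter on low counts, and none of the 3 had a read in any vehicle day 4 library. Of the 4 genes tested, the IL-4 receptor chain gene Il4ra rose after mXTX301 on day 4 (1.60-fold, adjusted p = 0.0196) and day 7 (2.79-fold, adjusted p = 7.42e-06). It rose after the unmasked control on day 7 (2.44-fold, adjusted p = 4.35e-05) and stood at 1.42-fold (adjusted p = 0.0969) on day 4. Crlf2, the TSLP receptor chain, rose on day 7 by 1.42-fold and 1.37-fold (adjusted p = 7.98e-05 and 0.000252). Il9r and Tslp passed in no comparison with vehicle.

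Downstream, 4 of 6 JAK and STAT genes rose with mXTX301 on day 4 and 5 on day 7, and 3 and then 5 with the unmasked control; none fell. The shares of all genes that rose were those given above, 16.2% and 25.7% for mXTX301 and 11.6% and 23.2% for the unmasked control. Jak1 (1.27-fold, adjusted p = 4.71e-05) and Stat5b (1.16-fold, adjusted p = 0.000328) had the smallest p for mXTX301 on day 4, and Jak1 (1.17-fold) and Jak3 (1.57-fold, adjusted p = 0.00261) on day 7. Under the unmasked control they were Jak1 (1.26-fold) and Stat3 (1.33-fold, adjusted p = 0.000940) on day 4, and Jak3 (1.80-fold, adjusted p = 0.000228) and Stat6 (1.18-fold, adjusted p = 0.00106) on day 7. The list medians were 0.28 and 0.22 (log2) for mXTX301 and 0.22 and 0.22 for the unmasked control. Stat5a was called in none of the 4.

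Of 12 STAT5 targets and feedback genes, 5 rose after mXTX301 on day 4, and 8 rose and 1, Ccnd3, fell on day 7, beside 16.2% and 25.7% of all genes higher. No share of all genes lower is given for the fall of Ccnd3. The unmasked control raised 3 and then 7, beside 11.6% and 23.2%. The kinase gene Pim1 rose 3.03-fold (adjusted p = 8.27e-08) and the signalling inhibitor Socs1 1.92-fold (adjusted p = 2.42e-07) after mXTX301 on day 7. Socs1 (1.68-fold, adjusted p = 2.1e-05) and Cish, an inhibitor induced by STAT5 (1.53-fold, adjusted p = 0.000519), led on day 4. Socs1 rose 1.84-fold and Cish 1.43-fold on day 4 with the unmasked control, and Socs1 1.99-fold and Pim1 2.66-fold on day 7. Socs1, Socs3 and Pim1 also answer interferon and other cytokines, and the survival gene Bcl2l1 passed in none of the 4. List medians were 0.18 and 0.70 for mXTX301 and 0.17 and 0.51 for the unmasked control.

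**Figure D4:**
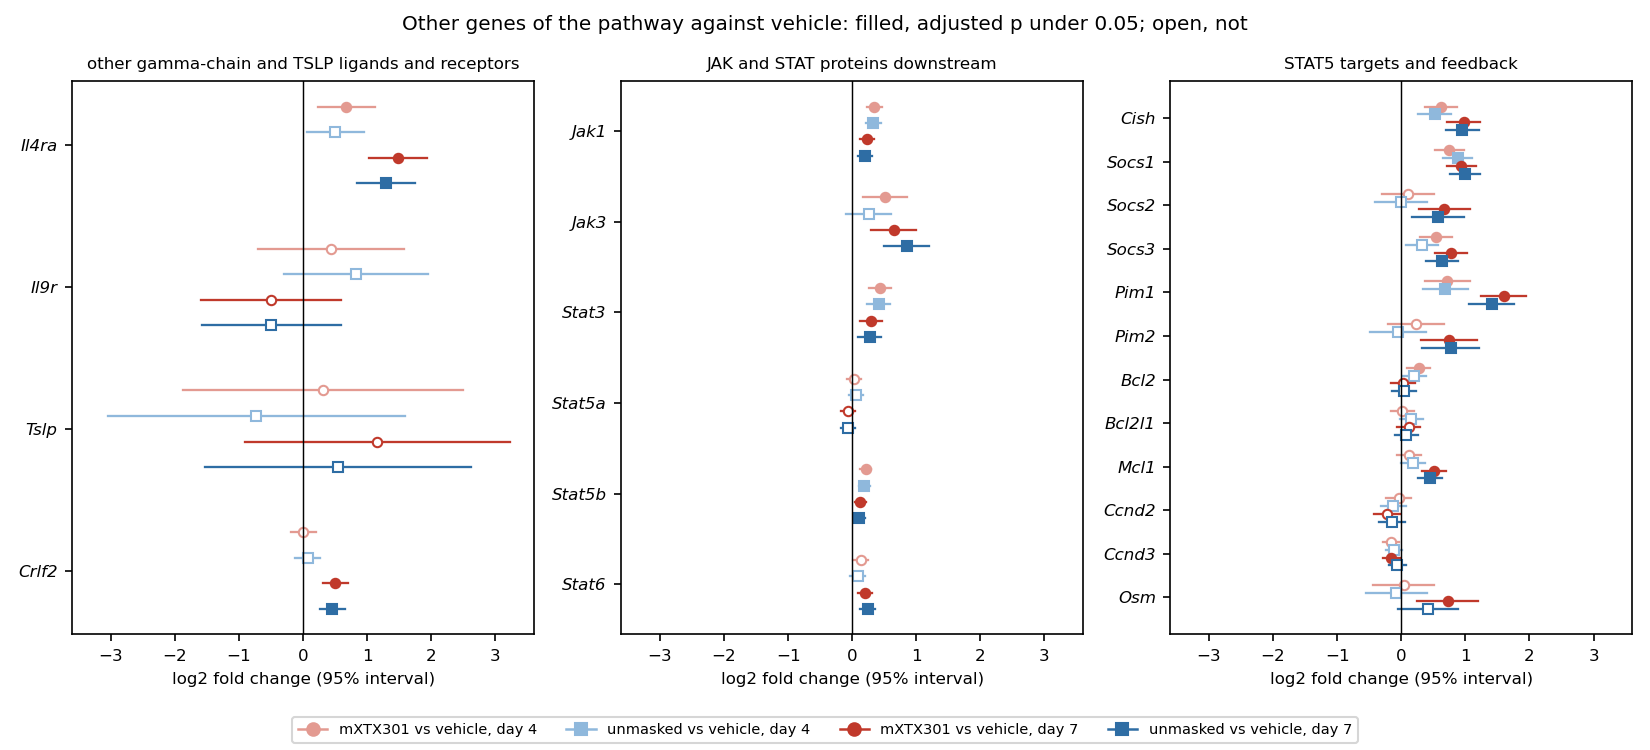
Log2 fold change against vehicle of the same day, with 95% intervals (x axis), of the other gamma-chain and TSLP genes tested, the JAK and STAT genes and the STAT5 targets, for mXTX301 (circles) and the unmasked control (squares) on day 4 (pale) and day 7 (dark). Filled symbols have an adjusted p under 0.05; Pim1 reaches 1.60 and Il4ra 1.48 after mXTX301 on day 7, and the JAK and STAT genes run from -0.07 (Stat5a) to 0.85 (Jak3), both after the unmasked control on day 7.

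Of 6 interferon-responsive transcription factor genes, 4 rose in each of the 4 comparisons. Of all genes, 16.2% and 25.7% rose with mXTX301 on days 4 and 7, and 11.6% and 23.2% with the unmasked control. Irf7 fell with the unmasked control on day 4 (0.746-fold, edgeR adjusted p = 0.00805), and no share of all genes lower is given beside it. Irf1, an activator that interferon induces, rose 2.07-fold and 2.38-fold after mXTX301 (adjusted p = 6.65e-11 and 1.01e-12) and 2.25-fold and 2.23-fold after the unmasked control.

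Of 8 genes of naive and memory T cells, cells that Il7r marks, few were called. Under vehicle the 8 summed to 80.7 to 158 CPM, while the 12 T-cell markers summed to 4.87 to 12.7 CPM. Which cells held these transcripts was not tested. After mXTX301 1 rose on each day, beside 16.2% and 25.7% of all genes, and 2 fell on day 7. With the unmasked control 1 rose and 2 fell on day 4, and 2 rose and 1 fell on day 7, beside 11.6% and 23.2% of all genes higher. With each compound the shares that rose were thus close to or below those over all genes. No share of all genes lower is given here, so the falls cannot be set against one. Tcf7, a transcription factor of naive and stem-like T cells, fell to 0.838-fold after mXTX301 on day 7 (adjusted p = 0.00844). Under the unmasked control Klf2 (0.565-fold, adjusted p = 0.0254) and S1pr1 (0.713-fold, adjusted p = 0.0347) fell on day 4, and Ccr7 (2.11-fold, adjusted p = 0.0198) and Bach2 (2.06-fold, adjusted p = 0.0216) rose on day 7.

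Of 8 effector T-cell genes, 6 and 4 rose after mXTX301 on days 4 and 7, and 5 and 4 after the unmasked control, with none falling, beside the same 16.2%, 25.7%, 11.6% and 23.2% of all genes higher. Zeb2, a transcription factor of effector cells, and Gzma, granzyme A, led for mXTX301 on day 4 (1.48-fold and 3.71-fold, adjusted p = 3.62e-05 and 0.000204), and Zeb2 and Id2 on day 7 (1.53-fold and 3.54-fold). Gzma rose 4.68-fold on day 4 with the unmasked control, and Zeb2 1.33-fold on day 4 and 1.47-fold on day 7, when Id2 rose 3.82-fold. The granzyme genes did not pass on day 7 with either compound. In the vehicle libraries the 8 effector genes summed to 113 to 188 CPM, beside 4.87 to 12.7 CPM for the 12 T-cell markers. The part of T cells in these values was not tested.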

How the data were processed

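PolyA RNA of 30 whole MC38 tumours, 5 per treatment and day, was sequenced. The deposited table holds raw read counts per gene; the submitters' processing notes name STAR 2.7.10a, HTSeq 0.11.1 and edgeR 3.34.0 (R 4.1.0) among the tools, beside FastQC 0.11.9 and cutadapt, and mm10 as the build. Whether counting used strand is not given in the sources used here, so overlapping and antisense genes may share reads. A deposited table of log2 CPM (counts per 1000000), per its headers, holds 14877 genes and 8 of the 9 members. It was used only as a check, and log2 values recomputed from the counts matched it within 5e-05.

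From the 24557 rows of counts, 5 repeated symbols were left out. edgeR 4.0.16 (R 4.3.3) was fitted to all 6 groups with TMM factors, filterByExpr (minimum count 10, 15482 genes kept), robust quasi-likelihood dispersions and Benjamini-Hochberg adjustment. The dispersion common to all genes, estimated before the quasi-likelihood fit, gave a coefficient of variation of 27.3%. Depth of 48301869 to 85195518 reads put every member except Il2 at 97 reads or more in each library. CPM are TMM-scaled counts; log2 levels used a prior count of 2. CD3-relative levels were tested by exact permutation. Alternatives were relative log expression factors, no filter, a replicate block, the compared groups alone, DESeq2 1.42.0, each replicate left out, other prior counts for the CD3 scale and, chosen after seeing the data, no skin-rich libraries (skin markers above 100 CPM). The code was tested on simulated data.

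Members and lists were chosen with earlier results of these data known. All members were described; of each pathway list, the 2 called genes with the smallest p, or the 2 highest if none was called, and of the likeness search the 3 genes with the highest r at a mean of at least 1 CPM, leaving out members and predicted genes. A few other genes (Stat5a, Bcl2l1, Ccnd3, Irf7, Foxp3, Ncr1, Eomes, Klre1, Klrb1c, Il1rl1, Gata3, Il9r, Tslp) were named after their values were seen. Some genes that the rule names are not reported here.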

Additional observations from a re-analysis of the deposited data

Results flagged for a closer look

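In 48 sets of 5 libraries (8 members in 6 groups), 5 held a library far from the other 4; chance gives about 1 in 20. Il7 read 4.26 CPM in unmasked day 7 replicate 1, against 2.56 to 2.89 CPM. Il2ra read 2.54 CPM in vehicle day 4 replicate 5, against 6.62 to 7.52 CPM. Il2rb read 61.1 CPM in mXTX301 day 4 replicate 3, against 22.7 to 28.7 CPM. Il7r read 2.01 CPM in vehicle day 7 replicate 2, against 4.67 to 6.21 CPM, and 13.8 CPM in unmasked day 4 replicate 3, against 23.8 to 28.98 CPM.

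The mXTX301 effect on Il7r differed between the days, by 1.63 on the log2 scale (edgeR interaction, adjusted p = 0.0306, 5 libraries per group). The call was lost in 7 of 20 fits that each left out 1 library (adjusted p 0.0535 to 0.0725). For the unmasked control the Il7r change was 1.35 and did not pass (edgeR interaction, adjusted p = 0.0560).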

How the results depend on the processing

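No result reversed. For single members 1983 results kept their side of the threshold over the alternatives, 41 no longer passed and 24 newly passed. Genes of the other lists were not put through the alternatives. Leaving out the skin-rich libraries took the count called after mXTX301 on day 4 from 7 to 4, and the CD3-relative counts of day 4 to 3 for mXTX301 and 3 for the unmasked control; the cause was not tested, and fewer libraries were compared. The change of the mXTX301 effect passed for 2 members in place of 1 with DESeq2 and without the skin-rich libraries, and that of the unmasked effect for 2 in place of 0 with DESeq2; the cause was not tested.

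With each library left out in turn, the counts ran from 4 to 7 (mXTX301 against vehicle, day 4), 6 to 7 (day 7), 4 to 4 and 6 to 7 (unmasked), 0 to 0 between the compounds on both days and over time in vehicle, 1 to 3 (mXTX301 over time), 3 to 3 (unmasked over time) and 0 to 2 for each change of effect. The CD3-relative counts ran from 4 to 6 and 7 to 7 for mXTX301 and 6 to 7 and 7 to 8 for the unmasked control. The change of the unmasked effect passed for 1 or 2 members without vehicle day 4 replicate 5, vehicle day 7 replicate 3 or 5, unmasked day 4 replicate 2 or unmasked day 7 replicate 1 or 3, and that of mXTX301 for 2 without vehicle day 4 replicate 5, vehicle day 7 replicate 5 or mXTX301 day 4 replicate 5.

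Replicate numbers did not pair the libraries: deviations from group means had a mean r of 0.0465 between the same numbers (lowest -0.687; -0.00421 between others, 2000 genes), and 9 of 30 libraries had their best partner under their own number. A replicate block gave 2 members in place of 1 for the change of the mXTX301 effect, Il15ra being added. Depth limits Il2 alone, at 8 reads or fewer in any library.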

Other observations

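Markers of further cell types moved with the treatments beside the gamma-chain genes, and their part in the members' levels was not tested. All 5 mast-cell markers rose on day 7 with each compound, beside 25.7% of all genes after mXTX301 and 23.2% after the unmasked control. Their summed level was 3.78 to 9.70 CPM in vehicle day 7, 15.8 to 20.9 CPM after mXTX301 and 11.5 to 28.3 CPM after the unmasked control. The 5 neutrophil markers summed to 4.42 to 17.7 CPM in vehicle day 7, 21.8 to 46.0 CPM after mXTX301 and 17.7 to 78.8 CPM after the unmasked control. With the unmasked control 4 of the 5 rose, beside the same 23.2% of all genes, and the count for mXTX301 is not reported here. Some lists stood lower. The 5 migratory dendritic-cell markers summed to 709 to 824 CPM in vehicle day 7, 507 to 597 after mXTX301 and 521 to 640 after the unmasked control. On day 4 the 4 endothelial markers summed to 102 to 139 CPM in vehicle, 69.2 to 107 after mXTX301 and 60.0 to 79.5 after the unmasked control. The endothelial ranges overlapped on day 7. The 5 B-cell markers stayed at 4.28 to 8.88 CPM in every library.

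A gene that carries Il2rg as an alias in the deposited table, Gm614 (X:101261376-101263992), lies beside Il2rg and was not counted as a member; it read 0.0871 to 1.11 CPM.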
